A study of Mus musculus with 6 samples.

Results

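*Sostdc1* and 9 other genes of bone morphogenetic protein (BMP) signalling were followed in both channels of 6 arrays of cultured mouse keratinocytes. The others were the ligands *Bmp2*, *Bmp4* and *Bmp7*, the response genes *Id1*, *Id2* and *Id3*, the inhibitory *Smad6*, the receptor *Lrp4* and the pseudoreceptor *Bambi*. These 10 genes were matched to 12 non-control probes through the accessions on the array, out of 21368 named genes and 55681 probes in all. They were chosen by the Sox11 knockout ratios, in which *Sostdc1* had the lowest mean log2 ratio of all named genes (-4.97), so their values in that genotype are given as a description, without a test. Where a gene had more than 1 probe, the brightest is described.

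Keratinocytes from newborn skin carried *Krt14-Cre* with *Sox4* fl/fl (Sox4 cKO), with *Sox11* fl/fl (Sox11 cKO) or with both (dcKO), and their RNA was hybridised against wild-type control RNA on the same array. The *Krt14* promoter drives Cre in the basal cells of stratified epithelia, so the genes were deleted in the keratinocyte lineage before culture. All cells were labelled 129SvEx:C57BL/6, and per the methods the Cre line was FVB/N and the floxed parents also carried *Sox12* -/-, for which the labels give no genotype in these cells. Every culture had been on J2 feeder cells, a mouse fibroblast line, for 3 passages and off them for at least 2. There were 2 arrays per genotype, described as biological replicates, with knockout RNA in Cy5 on replicate 1 and in Cy3 on replicate 2. The labels do not tell whether the wild-type RNA of different arrays came from the same culture, and the p-values treat the arrays as independent.

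BMP ligands bind paired serine/threonine kinase receptors, which phosphorylate Smad1, Smad5 and Smad9. These enter the nucleus with Smad4 and activate genes such as the *Id* genes, whose proteins inhibit bHLH transcription factors, and *Smad6*, which feeds back to dampen the pathway. *Sostdc1*, also known as ectodin or Wise, encodes a secreted protein that binds BMPs and modulates Wnt signalling through Lrp receptors. In skin, BMP signalling restrains hair follicle stem cells and acts in epidermal and follicular differentiation.

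The labels were checked first. *Sox4* gave log2 ratios of knockout over wild type of -2.49 and -2.54 in Sox4 cKO, and -2.23 and -2.81 in dcKO cells. *Sox11* gave -3.31 and -2.65 in Sox11 cKO and -3.07 and -3.79 in dcKO cells, so each targeted gene was lower on every array that should lack it. All 6 keratinocyte markers were well above background. Of 8 fibroblast markers 3 were above background in at least 1 of 12 channels. *Col1a2* was above it in 11 of 12, at log2 levels of 5.45 to 6.16 over all channels, and *Dcn* and *Pdgfra* in 1 each. *Col1a1*, *Col3a1*, *Lum*, *Thy1* and *Postn* were above it in none. The summed log2 level of the 8 was 7.94 to 8.21 in every channel. *Xist* was not well above background in either channel of both Sox11 cKO arrays, where the Y-linked *Ddx3y* and *Eif2s3y* were, and the reverse held on the other 4 arrays. In these transcripts the wild-type RNA of the Sox11 cKO arrays therefore differed from that of the other arrays, while both channels of each array shared the pattern. Between Sox11 cKO and the other genotypes, genotype and sex-linked pattern cannot be told apart. Knockout channels had 35.1% to 42.8% of probes well above background and wild-type channels 37.3% to 45%, and the small number of arrays limits the precision of every value.

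*Sostdc1* (probe A_55_P2151388) was lower in Sox11 cKO than in wild-type cells on both arrays, and most of the variation between arrays lay in the wild-type channel. Levels are log2 intensities after normalisation within and between arrays, and are comparable between channels for 1 probe but not between genes. On the Sox11 cKO arrays the wild-type channel read 8.54 on replicate 1 and 11.56 on replicate 2, and the knockout channel 4.86 and 5.29, not well above background on either. The log2 ratios were -3.67 and -6.27. On the mean of the 2 arrays *Sostdc1* was at least 29.6-fold lower in Sox11 cKO cells, which replicate 1 alone does not reach. A second probe (A_55_P2158121) gave -3.94 and -6.49, or at least 29.4-fold lower on the mean of the 2 arrays. Both probes read the same RNA, so they are no independent measurement.

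The other wild-type channels held far less *Sostdc1* signal. On the Sox4 cKO arrays wild-type cells read 5.92 and 6.27, both well above background, and the knockout channel 5.72, above background, and 5.06, not above it. On the dcKO arrays the wild-type channel read 4.81 and 4.73 and the knockout channel 4.73 and 5.0, and none of these 4 was well above background. In order of level, the wild-type channels were therefore Sox11 cKO replicate 2, Sox11 cKO replicate 1, both Sox4 cKO arrays, which lay 0.35 apart, and the dcKO arrays, which lay at background. From lowest to highest the wild-type channels spanned 6.83 log2 units (114-fold), whereas the knockout channels spanned 0.99. Of 14006 named genes well above background in at least 1 wild-type channel, 20 had a wider wild-type range, against a median range of 0.89. The *Sostdc1* range includes the Sox11 cKO wild-type readings behind the ratio it was chosen by, so its rank is a description and no test. In a bulk culture, fewer cells that express a gene and less RNA per cell cannot be told apart.

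In Sox4 cKO cells the *Sostdc1* log2 ratios were -0.19 and -1.20, with a mean of -0.70 ± 0.72 (SD, n = 2; limma adjusted p = 0.777), which was within the spread between arrays. The second probe gave -0.15 and -0.73 (limma adjusted p = 0.88). For dcKO cells no fold could be given, as neither channel was well above background on either array. The difference between dcKO and Sox4 cKO was 0.80 ± 0.58 (SE; limma adjusted p = 0.682). All 6 knockout channels thus read low, with only 1 well above background. With knockout channels at background, a ratio far below 0 could appear only where the wild-type channel held strong signal. The dcKO arrays could therefore not show a fall, and the ratios do not rank the genotypes.

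**Figure D1:**
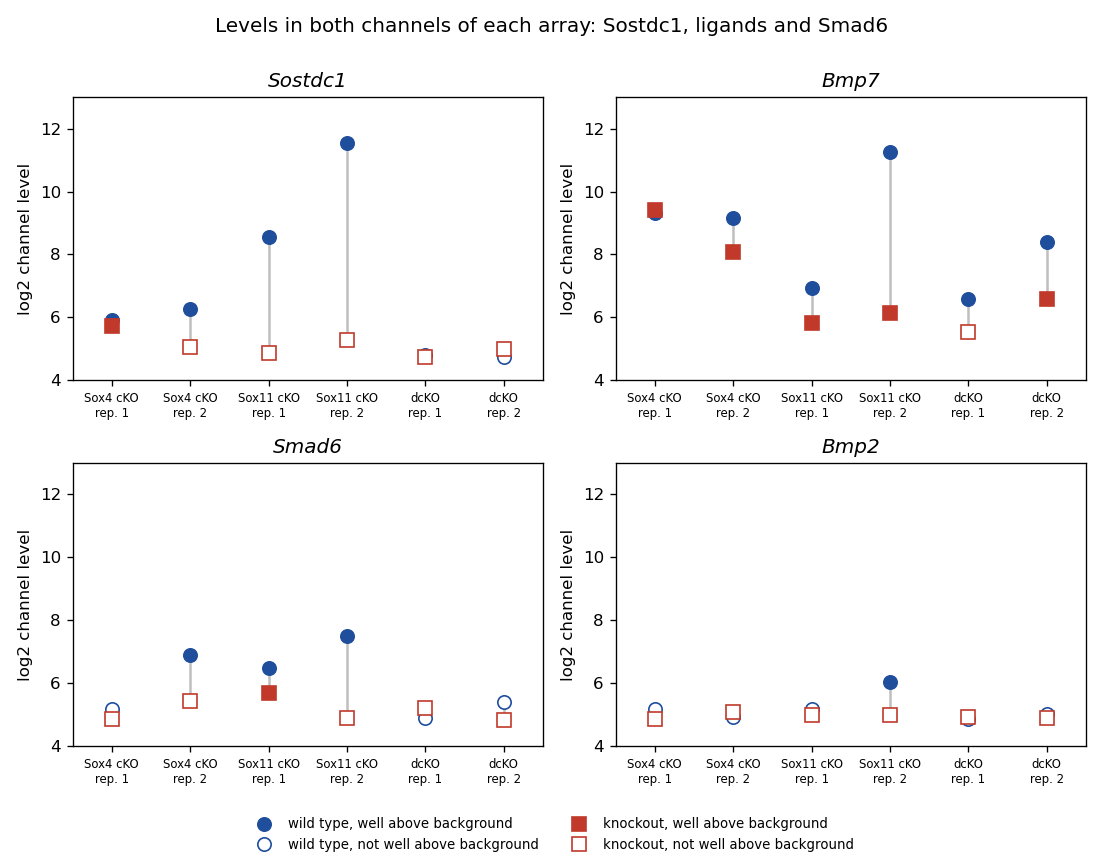
Log2 channel level of *Sostdc1*, *Bmp7*, *Smad6* and *Bmp2* (y axis) on each of the 6 arrays (x axis), with wild type as circles and knockout as squares, filled where the probe was well above background. The grey line joins both channels of an array, and the wild-type channel of Sox11 cKO replicate 2 was the highest wild-type reading of all 4 genes (11.56, 11.26, 7.51 and 6.04).

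Among the ligands, *Bmp7* (A_52_P278354), which signals in many epithelia and in the kidney, was well above background in 11 of 12 channels. Its wild-type levels were 9.31 and 9.15 on the Sox4 cKO arrays, 6.93 and 11.26 on the Sox11 cKO arrays and 6.58 and 8.40 on the dcKO arrays. Knockout levels were 9.43 and 8.07 in Sox4 cKO, 5.83 and 6.15 in Sox11 cKO and 5.54 and 6.57 in dcKO cells. The knockout channel was thus lower on 5 of 6 arrays, with Sox4 cKO replicate 1 as the exception. The dcKO log2 ratios were -1.04 and -1.83, a mean of -1.43 ± 0.56 (SD, n = 2) that did not pass the test (limma adjusted p = 0.234). Without either of the Sox11 cKO arrays the same dcKO value passed, as the spread between arrays was then estimated from the other genotypes. It did not pass without either dcKO array, at -0.52 without replicate 1 and -2.34 without replicate 2. The arrays left in read -1.83 and -1.04, so both values depend on the dye effect, then fitted from the Sox4 cKO and Sox11 cKO arrays. Its Sox4 cKO log2 ratios of 0.12 and -1.08 differed in sign (mean -0.48, limma adjusted p = 0.89). Sox11 cKO gave -1.10 and -5.11, and as for *Sostdc1* replicate 2 was the lower. The difference between dcKO and Sox4 cKO was -0.96 ± 0.68 (SE; limma adjusted p = 0.674).

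*Bmp2* and *Bmp4* encode closely related ligands that drive epidermal commitment in the embryo, and neither gave a usable level in these cultures. *Bmp2* (A_55_P2041961) was well above background in 1 of 12 channels, the wild-type channel of Sox11 cKO replicate 2, at 6.04 against 4.84 to 5.18 in the other wild-type channels. Its Sox11 cKO log2 ratios were -0.20 and -1.06, the first from channels that were both not above background. *Bmp4* was not well above background in any channel with either of its probes, so its log2 ratios carry no fold.

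*Smad6* (A_55_P2129658), the inhibitory Smad, followed the wild-type pattern of *Sostdc1* on the Sox11 cKO arrays. Its wild-type levels were 6.48 and 7.51 there, 5.16 and 6.88 on the Sox4 cKO arrays and 4.89 and 5.39 on the dcKO arrays, with 3 of 6 well above background. Knockout levels lay between 4.81 and 5.67 and only the 5.67 of Sox11 cKO replicate 1 was above background. The Sox11 cKO log2 ratios were -0.82 and -2.63. In Sox4 cKO cells they were -0.31 and -1.46 (mean -0.88 ± 0.81, SD, n = 2; limma adjusted p = 0.258). Only the wild-type channel of replicate 2 was above background there, so no fold is given. The mean of -0.88 passed without either Sox11 cKO array. In dcKO cells neither channel was above background on either array, so no fold is given.

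*Lrp4*, a receptor that binds Sostdc1, and *Bambi*, a receptor-like protein without a kinase domain that blocks BMP and TGF-β signalling, were near background throughout. For both genes only the wild-type channel of Sox4 cKO replicate 1 was well above background, at 5.80 for *Lrp4* (A_55_P1967168) and 5.58 for *Bambi* (A_52_P634995). The *Lrp4* log2 ratios in Sox4 cKO were -0.81 and 0.44 and those of *Bambi* -0.41 and -0.06. Neither passed the test (limma adjusted p = 0.922 and 0.851). Of the remaining Lrp receptors, *Lrp5* and *Lrp6*, the Wnt coreceptors, were well above background in all 12 channels, and their dcKO log2 fold changes were -0.20 (limma adjusted p = 0.718) and -0.33 (limma adjusted p = 0.711).

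The *Id* genes were the only members well above background in all 12 channels. *Id1* and *Id3* fell in dcKO cells, while *Id2* did not. At an adjusted p below 0.05 and an absolute log2 fold change above 1.5, the thresholds of the study's methods, 1 of the 10 members, *Id1*, was called in dcKO, against 0.756% of all probes. On adjusted p alone there were 2, *Id1* and *Id3*, against 2.06% of probes. Counted by the brightest probe, as the members were, 298 of 21368 named genes were called in dcKO. On adjusted p alone 456 named genes were lower and 313 higher. None of the 10 was called in Sox4 cKO cells, where 0.14% of all probes were (0.176% on adjusted p alone). Without adjustment 2 members, *Id1* and *Smad6*, had a limma p below 0.05 there, against 7.4% of all probes and 2254 of 21368 named genes.

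*Id1* (A_55_P2052563) read 10.15 and 10.93 in the wild-type channel of the dcKO arrays and 7.33 and 9.92 in the knockout channel. The 2 dcKO readings lay below all 6 wild-type readings, which ran from 10.15 to 11.70. Its log2 ratios were -2.82 and -1.01, a mean of -1.92 ± 1.28 (SD, n = 2; limma adjusted p = 0.0397), or 3.78-fold lower. The size rests mostly on replicate 1, since without it the value was -1.07 (limma adjusted p = 0.439) and without replicate 2 it was -2.76 (limma adjusted p = 0.0856). The call was also lost without either Sox4 cKO array (limma adjusted p = 0.0686) and, over 13 alternatives in all, *Id1* passed in 5, with adjusted p from 0.000264 to 0.439. Both single knockouts gave smaller log2 ratios, -1.30 and -0.50 in Sox4 cKO (mean -0.90, limma adjusted p = 0.615) and -0.60 and -1.16 in Sox11 cKO cells. The knockout channel was therefore lower on all 6 arrays. The difference between dcKO and Sox4 cKO was -1.02 ± 0.48 (SE) and did not pass the test (limma adjusted p = 0.475).

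*Id3* (A_51_P380178) had the smallest spread between the dcKO arrays among the *Id* genes. Its wild-type channel read 10.82 and 10.88 and its knockout channel 9.56 and 9.89, both below the lowest of 6 wild-type readings. The log2 ratios were -1.26 and -0.99, a mean of -1.13 ± 0.19 (SD, n = 2; limma adjusted p = 0.0207), or 2.19-fold lower, which passed the adjusted p but not the fold threshold. Without dcKO replicate 1 the value was -1.03 (limma adjusted p = 0.27) and without replicate 2 -1.23 (limma adjusted p = 0.218), while *Id3* passed in 9 of 13 alternatives. Sox4 cKO gave -0.14 and -0.37 (limma adjusted p = 0.799) and Sox11 cKO -0.29 and 0.08. The difference between dcKO and Sox4 cKO was -0.87 ± 0.23 (SE; limma adjusted p = 0.176), and it passed under median centring (-1.49, limma adjusted p = 0.0267) and with the authors' table (-0.87, limma adjusted p = 0.0286).

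*Id2* (A_52_P240542) moved the other way in dcKO cells, without passing the test. The wild-type channel read 7.19 and 8.33 and the knockout channel 7.40 and 9.77, with log2 ratios of 0.20 and 1.44 (mean 0.82 ± 0.88, SD, n = 2; limma adjusted p = 0.69). The dcKO arrays held the 2 lowest of 6 wild-type readings, as the other 4 lay between 9.38 and 11.06. In Sox11 cKO cells the log2 ratios were -0.66 and -3.49, and on replicate 2 the wild-type level of 11.06 was again the highest of all wild-type channels. Sox4 cKO gave -0.77 and -0.08 (limma adjusted p = 0.926). The dcKO value was -0.33 without dcKO replicate 2 (limma adjusted p = 0.949) and 1.98 without replicate 1 (limma adjusted p = 0.527), the first of these depending on the fitted dye effect since both arrays read above 0. Without either Sox11 cKO array it passed at 0.82 (limma adjusted p = 0.0182), as did its difference from Sox4 cKO at 1.25 (limma adjusted p = 0.0177, against 0.652 over all arrays). By limma 0 of the 10 members passed in the difference between dcKO and Sox4 cKO (0.562% of all probes were called in that comparison, 0.673% on adjusted p alone), and 2, *Id3* and *Smad6*, had an unadjusted p below 0.05, against 12.1% of all probes.

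**Figure D2:**
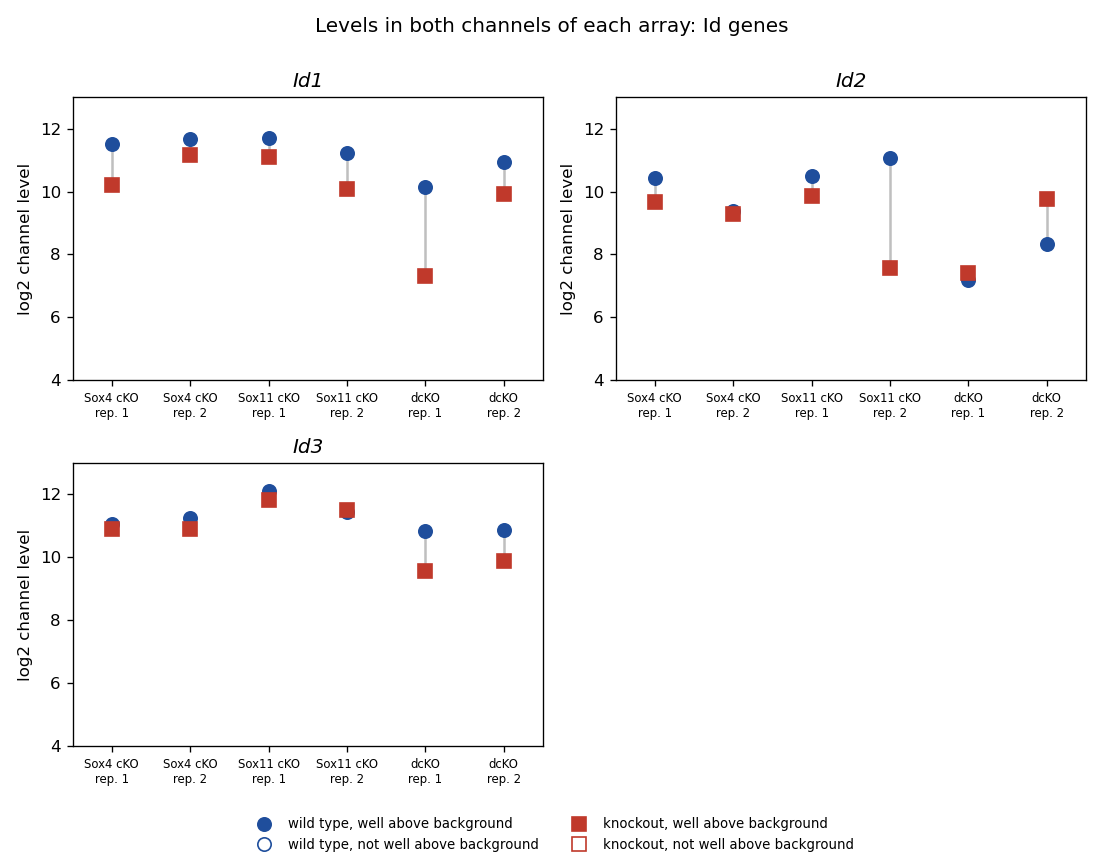
Log2 channel level of *Id1*, *Id2* and *Id3* (y axis) on each array (x axis), with wild type as circles and knockout as squares, all well above background. Knockout lies below wild type on all 6 arrays for *Id1*, and for *Id3* the dcKO readings of 9.56 and 9.89 are the lowest of its 12 channels.

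*Id3*, which fell in dcKO cells, and *Id2*, which did not, are shown by the 250 bases before their annotated start, to let the upstream letters of both be compared. Promoter sequences came from RefSeq on GRCm38.p6, where 4 of the 10 members matched (*Bmp4*, *Id2*, *Id3* and *Smad6*). Capitals mark matches, on either strand, to the GC-rich Smad1/5 motif GGCGCC, the Smad palindrome GTCTAGAC or the Sox motifs ACAAAG and ACAATG.
Id3 (chr4:136143572-136143821, + strand): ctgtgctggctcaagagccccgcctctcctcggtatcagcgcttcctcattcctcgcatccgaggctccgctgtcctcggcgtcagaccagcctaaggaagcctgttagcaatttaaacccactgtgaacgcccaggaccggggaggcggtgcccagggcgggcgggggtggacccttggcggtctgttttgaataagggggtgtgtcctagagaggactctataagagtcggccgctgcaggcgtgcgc
Id2 (chr12:25096093-25096342, - strand): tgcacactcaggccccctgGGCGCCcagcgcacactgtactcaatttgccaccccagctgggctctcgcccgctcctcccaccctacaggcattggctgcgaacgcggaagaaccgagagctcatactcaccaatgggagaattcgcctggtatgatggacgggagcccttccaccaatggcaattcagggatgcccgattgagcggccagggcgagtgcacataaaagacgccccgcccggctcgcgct
Smad6 (chr9:64022045-64022074, - strand): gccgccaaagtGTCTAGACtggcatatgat
In the *Id2* window GGCGCC began 231 bases before the start, and the *Id3* window held none of these 4 motifs. *Smad6* is shown as 30 bases around its start, where GTCTAGAC overlaps the start. Over windows of 250 bases before to 50 after the start of all 32851 promoters, GGCGCC occurred in 11.9%, GTCTAGAC in 0.213%, ACAAAG in 18.7% and ACAATG in 12.6%. A match describes the letters only.

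**Figure D3:**
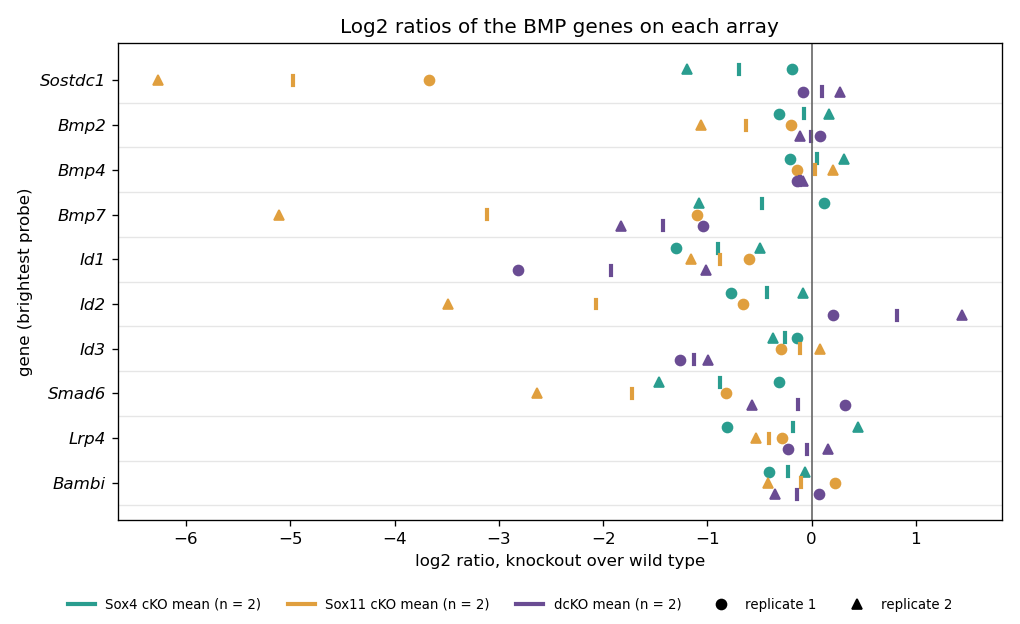
Log2 ratio of knockout over wild type (x axis) for each of the 10 genes (y axis), with a circle for replicate 1, a triangle for replicate 2 and a bar for the mean of 2 arrays, coloured by genotype. The Sox11 cKO arrays lie far apart for *Sostdc1* (-3.67 and -6.27), *Bmp7* (-1.10 and -5.11) and *Id2* (-0.66 and -3.49), while both dcKO arrays lie below 0 for *Id1*, *Id3* and *Bmp7*.

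Across the 10 genes the median log2 fold change was -0.34 in Sox4 cKO, -0.75 in Sox11 cKO and -0.12 in dcKO cells, against 0.00, 0.00 and -0.01 over all named genes. Members lower on both arrays numbered 6, 7 and 4, or 60%, 70% and 40%, against 25.3%, 22.8% and 31.8% of all named genes. Only 5, 6 and 4 members were well above background in wild type or knockout on both arrays of the genotype. Some of the counted signs thus come from background readings, as for *Bmp4* in dcKO cells (-0.14 and -0.08). The Sox11 cKO figures follow in part from how the genes were chosen. The wild-type channel of Sox11 cKO replicate 2 was the highest of the 6 wild-type channels for 5 of the 10 members (*Sostdc1*, *Bmp2*, *Bmp7*, *Id2* and *Smad6*), as it was for 23.2% of the 14006 detected genes. That same channel had the highest summed log2 level of 6 melanocyte markers, 10.18 against 8.21 to 9.02 in the other 11, of which 4 were detected anywhere and *Dct* and *Tyrp1* nowhere. The rise lay in *Mitf* alone, at 9.91 in that channel and 6.13 to 8.31 in the others. *Mlana* had its lowest wild-type level in that channel, at 5.56 in a wild-type range up to 7.21. *Pmel* read 5.71 (wild-type range 5.44 to 5.99) and *Tyr* 5.46 (5.15 to 5.61) in that channel. Of 9 hair follicle markers 5 were detected, and their summed log2 level was also highest there, at 11.44 against 9.83 to 11.13. *Krt15* carried this sum, at 10.59 in that channel and 10.56 in the knockout channel of the same array, where *Sostdc1* was not above background. Whether these markers have a part in the *Sostdc1* level was not tested.

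The genes most like *Sostdc1* over the 12 channels, out of 12879 detected named genes, were *Slc40a1* (Pearson's r = 0.933), *Mospd1* (0.924), *Palmd* (0.918), *Gpnmb* (0.917) and *Esyt3* (0.915). All of these were highest in the wild-type channel of Sox11 cKO replicate 2, among them *Slc40a1*, the iron exporter ferroportin, at 8.52 and *Gpnmb*, a transmembrane glycoprotein of pigment cells and macrophages, at 11.52. Over the 6 array log2 ratios they were *Chit1* (0.998), *B4galt4* (0.995), *Usp3* (0.994), *Trim2* (0.993) and *Fam117a* (0.992). Both rankings are descriptions over points that share arrays and rest largely on the Sox11 cKO arrays.

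A wider list of 61 BMP pathway genes was measured with the same fit. In dcKO cells 4 of them were called (*Fst*, *Nbl1*, *Acvrl1* and *Tll1*) and *Acvr2b* passed the adjusted p alone, so that 4 were lower and 1 higher. Over all features, 0.756% of probes were called in dcKO and 2.06% passed the adjusted p, and 298 of 21368 named genes were called. In Sox4 cKO cells 0 of the list passed by limma, and 9 had an unadjusted p below 0.05, against 2254 of the 21368 named genes. The list's median log2 fold change was 0.00 in Sox4 cKO, -0.02 in Sox11 cKO and -0.06 in dcKO cells. In dcKO 27 genes of the list were lower on both arrays and 16 higher, or 44.3% lower against 31.8% of all named genes.

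Extracellular antagonists and modulators held 3 of the 4 calls among their 19 genes. *Fst*, which encodes follistatin, a secreted protein that binds activins and BMPs, was bright in every wild-type channel, from 13.40 to 15.02. On the dcKO arrays it read 15.02 and 14.14 in wild-type and 12.72 and 12.05 in knockout cells, the 2 lowest readings of the 12 channels. Its log2 ratios were -2.30 and -2.10, a mean of -2.20 ± 0.15 (SD, n = 2; limma adjusted p = 0.00151), or 4.59-fold lower. *Fst* passed in 11 of 13 alternatives, and not without dcKO replicate 1 (-2.09, limma adjusted p = 0.0587). Sox4 cKO gave 0.06 and 0.29 (limma adjusted p = 0.871) and Sox11 cKO -0.41 and -0.65. The difference between dcKO and Sox4 cKO was -2.38 ± 0.22 (SE; limma adjusted p = 0.0102), and it did not pass when any of the 4 arrays of these genotypes was left out (limma adjusted p from 0.0596 to 0.0955).

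*Nbl1*, also known as Dan and a secreted antagonist of the same cystine-knot family as gremlin, gave log2 ratios of -1.75 and -1.68 in dcKO (limma adjusted p = 0.0491) and 0.04 and -1.73 in Sox4 cKO cells (limma adjusted p = 0.621). Its dcKO call was lost without dcKO replicate 1 (-0.74) and without either Sox4 cKO array. With replicate 1 left out, the remaining dcKO array read -1.68. The -0.74 thus depends on the dye effect, then fitted from the Sox4 cKO and Sox11 cKO arrays. *Tll1*, a tolloid-like protease that cleaves the antagonist chordin, was higher in dcKO cells at log2 ratios of 1.23 and 1.99 (mean 1.61 ± 0.53, SD, n = 2; limma adjusted p = 0.0036). A second, dimmer probe gave 0.33 and 0.90 and did not pass (limma adjusted p = 0.246). In Sox11 cKO cells the brighter probe gave 0.50 and 1.33 and the dimmer one 0 and -0.32, which was not tested. The wild-type channel of the brighter probe was not well above background on either of those arrays. Leaving out dcKO replicate 1 or 2 took *Tll1* to an adjusted p of 0.0911 or 0.0891 (limma). *Bmp1*, the related protease, had a dcKO log2 fold change of -0.57 (limma adjusted p = 0.226).

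Among 11 receptors and coreceptors, *Acvrl1*, the ALK1 receptor best known from endothelium, went in opposite directions. In dcKO cells its log2 ratios were -1.55 and -1.82 (mean -1.69 ± 0.20, SD, n = 2; limma adjusted p = 0.0283), and in Sox4 cKO cells 1.33 and 0.98 (mean 1.16; limma adjusted p = 0.33). Sox11 cKO cells gave 1.05 and 2.28, also above 0, which was not tested. The difference of -2.84 ± 0.38 (SE) between dcKO and Sox4 cKO passed (limma adjusted p = 0.0305), although with any of the 4 arrays of these genotypes left out it did not (limma adjusted p from 0.103 to 0.252). Its wild-type level was 9.49 and 8.54 on the dcKO arrays and 5.77 and 6.13 on the Sox4 cKO arrays, so the arrays differed in the wild-type channel as well. The dcKO fall was lost without dcKO replicate 1 (-2.04, limma adjusted p = 0.188) or 2 (-1.33, limma adjusted p = 0.404), and the Sox4 cKO value passed without either Sox11 cKO array (limma adjusted p = 0.00598). *Acvr2b*, an activin and BMP type II receptor, was lower in dcKO at -1.14 and -0.73 (limma adjusted p = 0.0455), a result lost without either dcKO array (-0.64 and -1.23, limma adjusted p = 0.466 and 0.182) and without either Sox4 cKO array (limma adjusted p = 0.0657). The type I receptors *Bmpr1a* and *Acvr1* were well above background in all channels, and their dcKO log2 fold changes were 0.07 and 0.09 (limma adjusted p = 0.921 and 0.898).

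No gene of the other roles passed. Of 11 other ligands 6 were not well above background anywhere, and *Bmp8a* gave log2 ratios of 0.18 and 1.14 in dcKO cells (limma adjusted p = 0.0809), followed by *Bmp8b* with 0.04 and 1.39 (limma adjusted p = 0.279) and *Gdf5* with -0.34 and 0.08 (limma adjusted p = 0.909). Of 10 Smads and intracellular regulators 8 were lower on both dcKO arrays (80%, against 31.8% of all named genes, and 18.2% of the ligands, 36.4% of the receptors, 50% of the Lrp receptors, 52.6% of the extracellular modulators and 25% of the response genes). These shares count undetected genes too. On both dcKO arrays, 8 of the 10 were well above background in wild type or knockout, against 11822 of 21368 named genes. The 80% and 31.8% are therefore not like for like. *Smad5*, a receptor-activated Smad of the pathway, gave -0.85 and -0.76 (limma adjusted p = 0.0552), *Smad4*, the common partner, -0.03 and -0.45 (limma adjusted p = 0.638), and *Smurf1*, a ubiquitin ligase that targets Smads, -0.07 and -0.19 (limma adjusted p = 0.901). Among the 8 further response genes, *Msx2* gave 0.26 and 0.49 (limma adjusted p = 0.73), *Dlx3* 0.23 and -0.29 (limma adjusted p = 0.973) and *Gata3* -0.16 and 0.08 (limma adjusted p = 0.964). *Fstl1*, a follistatin-like secreted protein named here after its values were seen, gave -2.17 and -1.97 in Sox4 cKO cells (limma adjusted p = 0.668), and passed without either Sox11 cKO array (limma adjusted p = 0.000284).

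**Figure D4:**
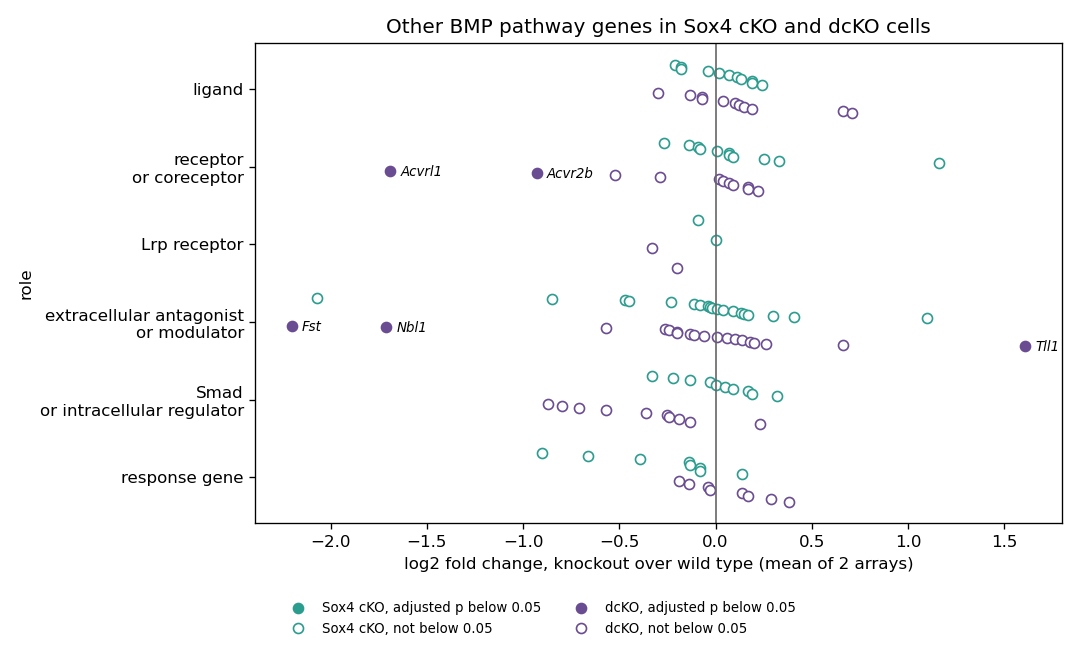
Mean log2 fold change of 2 arrays (x axis) for 61 further BMP pathway genes by role (y axis) in Sox4 cKO and dcKO cells, with filled points at a limma adjusted p below 0.05. Filled points are dcKO only, with *Fst*, *Nbl1*, *Acvrl1* and *Acvr2b* below 0 and *Tll1* above.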

How the data were processed

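The 6 arrays were 2-colour, with groups taken from the sample titles. Deposited spot intensity values are raw and linear, neither background corrected nor normalised, and came from Agilent Feature Extraction 11.0.1.1 per the submitters' processing notes. The same files give that software's processed intensity values. Log2 ratios deposited by the authors in a separate table were also read, whose sign was knockout over wild type on every array (Pearson's r from 0.89 to 0.952 with the values here). Its exact scaling and centring are not given, and column medians lay between -0.00664 and 0.00452. Both served only as alternatives.

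limma 3.58.1 in R 4.3.3 was used throughout. Median spot signals were corrected with normexp (offset 16), 3671 of 62976 spots per array were controls and left out, 194 to 288 outlier spots per array were set to missing, and ratios were loess normalised and averaged per probe. Channel levels were then Aquantile normalised between arrays. They are open to dye bias, as wild type carried Cy3 on replicate 1 and Cy5 on replicate 2. "At least" folds set the brighter group's mean against the dim group's mean, taken per array as the higher of its own signal and the lowest signal well above background. A limma model over all 6 arrays held 1 effect per genotype and a dye effect, which is the same as a block on the replicate number (2 residual degrees of freedom, prior 5.37). P-values were Benjamini-Hochberg adjusted over all 55681 probes. Arrays of the same replicate number deviated together across genotypes (r = 0.316, 0.244 and 0.125), so the replicate block was kept. The number also marks the dye orientation, and the 2 cannot be told apart. All arrays shared 1 slide and 1 scan. The fit was also run on simulated ratios with independent normal errors, with changes set only in probes above background in every channel. That run does not cover dim probes or wild-type RNA that differs between arrays.

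Probes were named through RefSeq accessions (GRCm38.p6), 28331 of 29786 matching. Members and lists were chosen with earlier results of these data known. The text names all members, the targeted genes, list genes with an adjusted p below 0.05 in Sox4 cKO or dcKO, up to 3 brightest genes per role and the 5 genes most like *Sostdc1*. Alternatives were the offset, median centring, processed signals, the authors' table, no dye term, dye effect subtracted first, a filter on dim probes, any probe of a gene, and leaving out each array.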

Additional observations from a re-analysis of the deposited data

Results flagged for a closer look

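*Bmp2* in wild-type cells stood out because 1 of 6 wild-type channels, on Sox11 cKO replicate 2, lay far from the others, with a gap of 0.715 of the whole range. Chance flags about 1 in 20 groups in this way.

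*Id2* went in opposite directions between genotypes on all arrays. Its log2 fold change was higher in dcKO than in Sox4 cKO by 1.25 (limma adjusted p = 0.652, and 0.0177 without either Sox11 cKO array) and higher in dcKO than in Sox11 cKO by 2.90, a difference that was not tested.

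3 genes of the wider list differed between dcKO and Sox4 cKO by the test of the difference itself. These were *Acvrl1* (-2.84, limma adjusted p = 0.0305), *Fst* (-2.38, limma adjusted p = 0.0102) and *Tll1* (1.45, limma adjusted p = 0.0331). None of the 3 passed when any 1 Sox4 cKO or dcKO array was left out.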

How the results depend on the processing

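With both thresholds (adjusted p and fold) applied, the count of members called in Sox4 cKO and of members differing between dcKO and Sox4 cKO was 0 under every alternative run. On adjusted p alone the *Id3* difference passed under median centring (-1.49, adjusted p = 0.0267) and with the authors' table (-0.87, 0.0286), and the *Id2* difference without either Sox11 cKO array (1.25, 0.0177). The dcKO count of 1 member (*Id1*) became 0 with an offset of 50, with processed signals, without the replicate block (adjusted p = 0.0863 for *Id1*) and with the dye effect subtracted first, and 2 under median centring, and ranged from 0 to 1 when single arrays were left out. The wider list's dcKO count of 4 became 1 with an offset of 50 and 0 with processed signals, and ranged from 0 to 4 when single arrays were left out (0 to 1 in Sox4 cKO, by *Fstl1*). Without the replicate block the dcKO calls of *Nbl1* (adjusted p = 0.225) and *Acvr2b* (0.0636) and the differences of *Acvrl1* (0.053) and *Tll1* (0.256) from Sox4 cKO were also lost. Some directions turned. Median centring gave dcKO log2 fold changes of 0.13 for *Bmp2*, 0.09 for *Bmp4* and 0.13 for *Lrp4*, and a dcKO minus Sox4 cKO difference of 0.06 for *Bmp4*. Processed signals gave 0.08 for *Bmp4* and 0.02 for *Bambi* in dcKO, -0.24 for *Bmp4* in Sox4 cKO and 0.32 for its difference. With single arrays left out, Sox4 cKO values ranged from -0.57 to 0.43 for *Bmp2*, -0.11 to 0.21 for *Bmp4*, -1.08 to 0.13 for *Bmp7*, -1.17 to 0.32 for *Id2*, -0.53 to 0.02 for *Id3*, -0.78 to 0.41 for *Lrp4* and -0.67 to 0.20 for *Bambi*. The dcKO values ranged from -0.98 to 1.17 for *Sostdc1*, -0.30 to 0.07 for *Bmp4*, -0.33 to 1.98 for *Id2*, -0.42 to 0.17 for *Smad6* and -0.09 to 0.02 for *Lrp4*. The differences ranged from -0.28 to 1.87 for *Sostdc1*, -0.45 to 0.56 for *Bmp2*, -0.35 to 0.02 for *Bmp4*, -0.45 to 0.74 for *Lrp4*, -0.34 to 0.53 for *Bambi* and -1.84 to 0.10 for *Nbl1*. The cause was not tested. Mean spot signals, named as an alternative, were not run because the columns used hold medians. Signal over background limits *Bmp2*, *Bmp4*, *Lrp4* and *Bambi* everywhere and *Sostdc1* and *Smad6* most in dcKO cells. In the single knockouts the *Sostdc1* knockout channel was above background only on Sox4 cKO replicate 1. That of *Smad6* was above it only on Sox11 cKO replicate 1.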
